A study of Mus musculus with 20 samples.

Results

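Prl2c2, Prl2c3 and Prl2c5 are 3 near-identical mouse genes that encode proliferins, small secreted hormones of the prolactin family. They were picked by symbol, as 3 of the 18722 genes of the deposited table, because their level differed strongly between Plerixafor and Solution tumours, so their values in those 2 groups are given as a description without a test. RNA was sequenced from tumours grown from U14 cells, a cervical cancer line of the mouse, in 4 groups of 5 libraries. Combination tumours were given the CXCR4 antagonist Plerixafor, which blocks a chemokine receptor, together with an antibody against the immune checkpoint receptor PD-1. Plerixafor tumours received the antagonist alone, anti-PD-1 tumours the antibody alone, and Solution tumours the control solution. The labels used here give no strain, age, dose or time. They also leave unsaid whether the 5 libraries of a group are 5 animals, so a p-value here reflects variation among libraries that can be partly technical. In bulk tumour RNA, fewer cells of a type and less RNA per cell cannot be told apart.

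Proliferins are best known from the mouse placenta, where trophoblast giant cells secrete them during pregnancy. They bind the receptor for insulin-like growth factor 2 and mannose 6-phosphate on endothelial cells and promote the growth of new vessels. Outside the placenta the genes are known for being switched on by serum and growth factors in cultured mouse fibroblasts, and an AP-1 element (a binding site of Fos and Jun proteins) in a proliferin promoter is a textbook case of transcriptional control.

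The 3 genes follow each other on mouse chromosome 13, in the order Prl2c3, Prl2c2, Prl2c5, when only genes with deposited values are counted. Each transcript in the GENCODE annotation of GRCm38 has 5 exons. The coding sequences of Prl2c2 and Prl2c3 are both 675 bases long and differ at 3 bases, an identity of 99.56%. Prl2c5, with 669 coding bases, differs from Prl2c2 at 20 bases and lacks 6 more (96.15% identity). Of the 497 coding bases before the first gap between the copies, with 18 variable positions, the 120 bases with the highest number of them, 9, are shown, coding bases 257 to 376 of the GENCODE transcripts on GRCm38. They are shown because they set Prl2c5 apart from the other copies. Capitals mark the 9 positions at which the copies are not all the same.
Prl2c2: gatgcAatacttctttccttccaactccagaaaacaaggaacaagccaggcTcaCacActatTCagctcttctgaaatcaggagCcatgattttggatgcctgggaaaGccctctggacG
Prl2c3: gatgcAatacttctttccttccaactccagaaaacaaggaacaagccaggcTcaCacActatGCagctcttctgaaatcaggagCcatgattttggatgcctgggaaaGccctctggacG
Prl2c5: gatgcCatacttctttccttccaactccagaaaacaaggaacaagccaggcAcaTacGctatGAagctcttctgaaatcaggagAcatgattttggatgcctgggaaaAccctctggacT
Prl2c5 has a base of its own at 8 of these 9 positions, Prl2c2 at 1 and Prl2c3 at 0. Stretches of each transcript were searched in the transcripts of the other copies and of the related gene Prl2c1. Of all stretches of 100 bases in the Prl2c2 transcript, 66.4% occur there without a mismatch, against 62.3% for Prl2c3 and 8.72% for Prl2c5. With 150 bases the shares were 50.9%, 49.9% and 0%. The read length, and how the authors treated reads that match more than 1 copy, are not given in the sources used here. The split of reads between Prl2c2 and Prl2c3 is therefore uncertain, Prl2c5 is the best separated copy, and the sum of the 3 genes is given beside each of them.

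**Figure D1:**
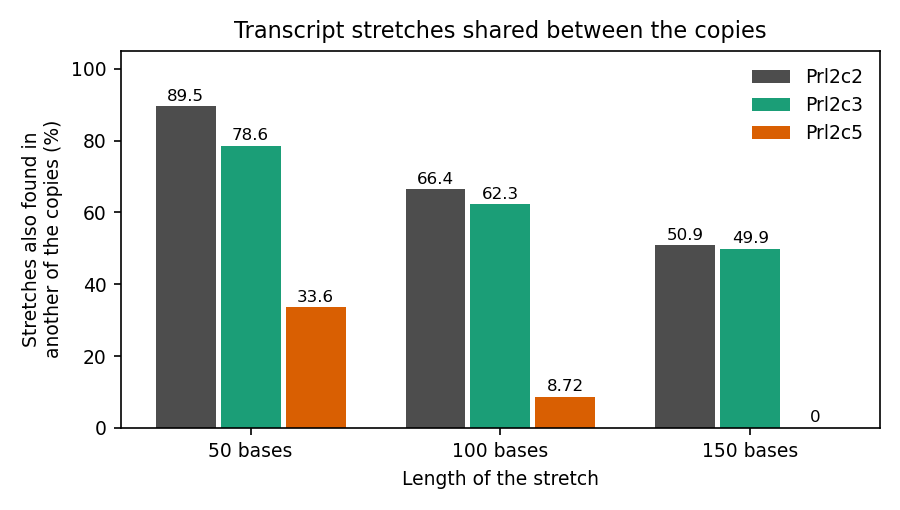
Share of the stretches of each transcript (%, vertical axis) that are also found elsewhere without a mismatch, for stretches of 50, 100 and 150 bases. The search covered the other copies and the related gene Prl2c1. Prl2c2 and Prl2c3 share most stretches of 50 bases, 89.5% and 78.6%, whereas Prl2c5 shares 33.6% of these and 0% of those of 150 bases.

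The RefSeq promoter table of GRCm38.p6 matched 2 of the 3 genes by symbol. Its windows run from 250 bases before the transcription start to 50 bases after it. They are shown because both genes were high in tumours with the antagonist and low in those without it. The window of Prl2c3 is chr13:12800030-12800329 on the minus strand, and that of Prl2c5 is chr13:13182466-13182765 on the plus strand. Capitals mark matches to motifs that were searched on both strands and chosen after the sequences had been seen. The AP-1 motif was searched as TGANTCA. The GATA motif of GATA factors was searched as AGATAA. The TATA box, which positions the start of transcription, was searched as TATANAA.
Prl2c3: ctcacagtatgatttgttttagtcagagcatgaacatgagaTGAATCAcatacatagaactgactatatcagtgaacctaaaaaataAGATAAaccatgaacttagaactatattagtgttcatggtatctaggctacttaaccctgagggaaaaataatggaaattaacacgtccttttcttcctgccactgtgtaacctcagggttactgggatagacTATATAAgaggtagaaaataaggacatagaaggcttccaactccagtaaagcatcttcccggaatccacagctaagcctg
Prl2c5: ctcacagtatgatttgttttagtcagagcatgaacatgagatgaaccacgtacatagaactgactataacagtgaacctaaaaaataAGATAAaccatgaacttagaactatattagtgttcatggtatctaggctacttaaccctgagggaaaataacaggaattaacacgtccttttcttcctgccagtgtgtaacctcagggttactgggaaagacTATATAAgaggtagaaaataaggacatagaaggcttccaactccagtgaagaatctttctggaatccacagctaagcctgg
The windows were 95.35% identical. Both held the GATA motif, with its first base at -163 from the start, and a TATA box at -30 in Prl2c3 and -31 in Prl2c5. The AP-1 motif was found in the Prl2c3 window alone, at -209, and the GC box letters GGGCGG in neither. None of the matches overlapped. Of 32851 promoter windows of the same length, 7.81% held the AP-1 motif, 11.2% the GATA motif, 11.3% the TATA box and 35.7% the GC box letters, so these matches describe the letters and show no binding.

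Prl2c2, the copy with the highest group mean in all 4 groups, was abundant in every tumour that had received the antagonist and scarce in the others. Values are FPKM, which are fragments scaled to the length of the gene and to the fragments of the library, listed from replicate 1 to 5. Prl2c2 had 167.1, 151, 119.4, 94.7 and 136.4 FPKM in Combination tumours, against 0.234, 4.29, 1.85, 21.17 and 3.68 FPKM in anti-PD-1 tumours. The lowest Combination library lay above the highest anti-PD-1 library, which was replicate 4. Plerixafor tumours had 99.02, 89.53, 382.6, 62.95 and 166.2 FPKM, against 0.522, 3.57, 0.205, 2.20 and 0.249 FPKM in Solution tumours. Replicate 3 of the Plerixafor group was the highest of all 20 libraries, and replicates 2 and 4 stood above the others in the Solution group.

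Prl2c3 followed the same order at lower levels. It had 62.48, 73.79, 42.69, 39.99 and 127.6 FPKM in Combination tumours, against 0.245, 2.85, 0.942, 10.39 and 2.21 FPKM in anti-PD-1 tumours. The groups did not overlap, from which nothing is read here, and anti-PD-1 replicate 4 was again the highest of its group. Plerixafor tumours had 116.9, 46.23, 222.9, 24.69 and 114.7 FPKM, against 0.437, 2.36, 0.376, 1.33 and 0.0522 FPKM in Solution tumours. Plerixafor replicate 4, the lowest library that had received the antagonist, was still above all 10 libraries without it.

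Prl2c5 had the lowest mean of the 3 genes in each group and was close to silent in Solution tumours. It had 54.32, 39.38, 66.29, 39.83 and 48.63 FPKM in Combination tumours, against 0.182, 0.450, 0.414, 3.89 and 0.727 FPKM in anti-PD-1 tumours. Plerixafor tumours had 32.74, 41.24, 54.08, 16.49 and 79.07 FPKM, against 0.0540, 0.0543, 0, 0.152 and 0.206 FPKM in Solution tumours. These Solution values rest on 0 to 4 reads each and 9 reads over the group, and the count of 0 in replicate 3 allows up to 0.159 FPKM (3 reads, counting error only). The Combination group rested on 737 to 1152 Prl2c5 reads per library.

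**Figure D2:**
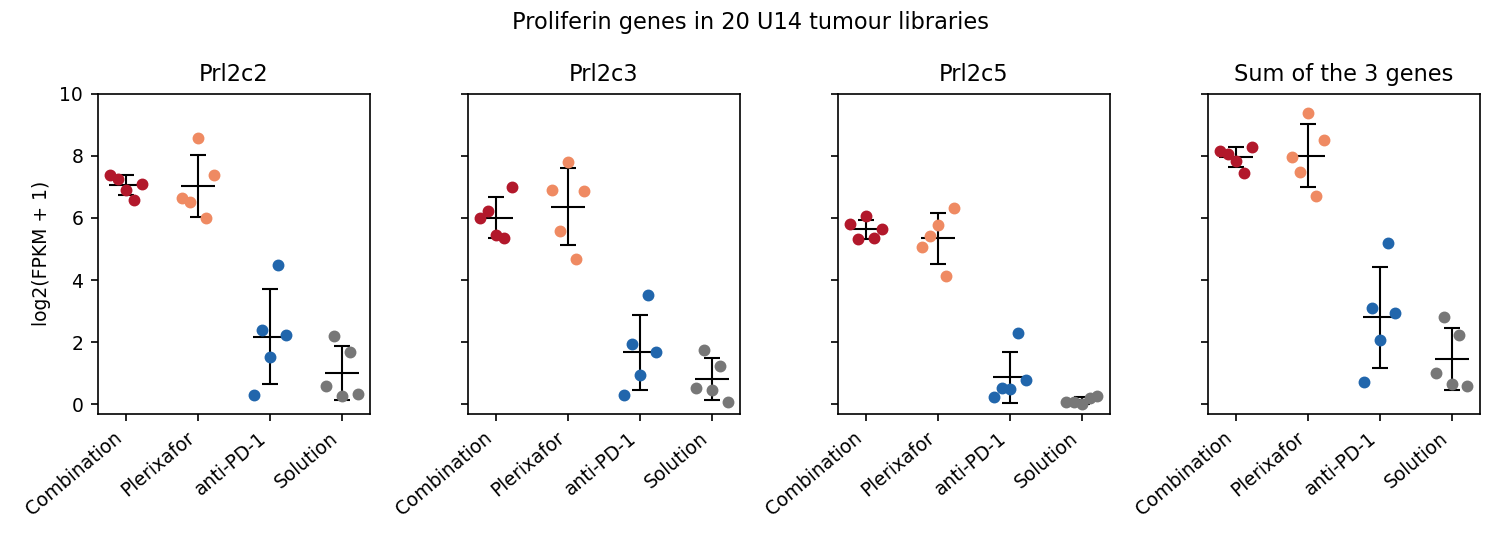
Levels of Prl2c2, Prl2c3, Prl2c5 and their sum as log2(FPKM + 1) in the 20 libraries, with 1 point per library in the order of its replicate number, and the mean and SD of each group in black. The 10 Combination and Plerixafor libraries lie above the 10 anti-PD-1 and Solution libraries in every panel, and anti-PD-1 replicate 4, at a sum of 35.46 FPKM, stands between the groups.

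Combination against anti-PD-1 asks what the antagonist added to the antibody, in libraries outside the comparison that the genes were chosen on. All 3 genes were higher in Combination tumours. On log2(FPKM + 1), in a limma fit of the 12687 genes with at least 1 FPKM in at least 5 libraries, the difference was 4.86 (SE 0.61, adjusted p = 9.11e-07) for Prl2c2. For Prl2c3 limma gave 4.32 (SE 0.58, adjusted p = 2.37e-06), and for Prl2c5 4.77 (SE 0.36, adjusted p = 1.44e-09), with n = 5 each. Each gene was higher in 5 of 5 Combination libraries than in any anti-PD-1 library. The share of all tested genes that separated as fully was not counted, for these or any other groups here. Nothing is therefore read from such separation. The background to the limma differences is wide, since 43.7% of all tested genes were higher and 30.9% lower in the same comparison, with a median difference of 0.15. The 3 genes also passed the filter on low values mainly through the tumours in which they are high, so their number is not read as support.

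The summed level averaged 252.7 ± 53.4 FPKM in Combination tumours and 10.7 ± 14.11 FPKM in anti-PD-1 tumours (SD, n = 5 each), a ratio of the means of 23.6. On the log2 scale the sum differed by 5.15 (exact two-sided permutation test, p = 0.00794, the smallest that 5 against 5 libraries can give), and by 5.75 without anti-PD-1 replicate 4. The lowest Combination sum, 174.5 FPKM, was 4.92 times the highest anti-PD-1 sum, 35.46 FPKM. The other 4 anti-PD-1 libraries carried much skeletal muscle RNA, whose 10 marker genes made up 2.77% to 22.3% of the summed FPKM there and 0.0406% in replicate 4. With replicate 4 as the sole anti-PD-1 library, an alternative chosen after the data were seen, limma gave smaller differences of 2.58 for Prl2c2 (adjusted p = 0.0109), 2.50 for Prl2c3 (adjusted p = 0.0246) and 3.35 for Prl2c5 (adjusted p = 9.10e-05), where the lone library is assumed to vary like the other groups. The size also depended on the pseudocount, and Prl2c5 differed by 6.0 with 0.1 FPKM added in place of 1.

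In Plerixafor against Solution, the comparison behind the choice of the genes, the log2 differences were 6.01 (SE 0.61) for Prl2c2, 5.55 (SE 0.58) for Prl2c3 and 5.22 (SE 0.36) for Prl2c5. In that comparison 42.3% of tested genes were higher and 33.2% lower, from which nothing is read here. The sum averaged 309.9 ± 217.1 FPKM in Plerixafor tumours and 2.35 ± 2.41 FPKM in Solution tumours (SD, n = 5 each). Prl2c2 reached rank 458 of 18722 genes by mean FPKM in Combination tumours and rank 371 in Plerixafor tumours, against 7499 in anti-PD-1 tumours and 11525 in Solution tumours. Prl2c5 held rank 1455 in Combination and 1605 in Plerixafor tumours, against 11925 in anti-PD-1 and 14969 in Solution tumours.

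Adding the antibody to the antagonist went with small differences in either direction. Combination minus Plerixafor was 0.02 (SE 0.61) for Prl2c2, -0.35 (SE 0.58) for Prl2c3 and 0.29 (SE 0.36) for Prl2c5 on the log2 scale, each within 1 SE, and the groups overlapped for all 3 genes. The antibody alone minus Solution gave 1.17 (SE 0.61), 0.88 (SE 0.58) and 0.75 (SE 0.36) for the same genes in that order. These groups overlapped too, and the anti-PD-1 mean was raised most by replicate 4. The interaction, which is the antibody difference with the antagonist minus that without it, was -1.14 (SE 0.86), -1.23 (SE 0.82) and -0.45 (SE 0.51). These differences hold groups that chose the genes and are given without a test.

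The make-up of the signal varied from library to library. Prl2c2 supplied 53.2 ± 5.94% of the summed FPKM in Combination tumours and 51.0 ± 8.47% in Plerixafor tumours (SD, n = 5 each). Prl2c3 supplied 26.5 ± 8.67% in Combination tumours and 32.5 ± 9.09% in Plerixafor tumours. Prl2c5 supplied 20.3 ± 5.82% in Combination tumours and 16.5 ± 6.26% in Plerixafor tumours. By exact two-sided permutation tests these shares differed by 2.23, -6.03 and 3.8 percentage points, with p = 0.635, 0.318 and 0.381 and p adjusted over the 3 shares of 0.635, 0.571 and 0.571, none past 0.05.

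Within the 10 libraries that received the antagonist the ratio of Prl2c3 to Prl2c2 ran between 0.358, in Combination replicate 3, and 1.18, in Plerixafor replicate 1, with a median of 0.503. The ratio of Prl2c5 to Prl2c2 ran between 0.141, in Plerixafor replicate 3, and 0.555, in Combination replicate 3, with a median of 0.344. Plerixafor replicate 3, the library with the highest sum, thus had the smallest Prl2c5 share, 8.07% of 12339 proliferin reads (Wilson 95% interval 7.60% to 8.57%, counting error only). In Combination replicate 3 the share was 28.6% of 4030 reads (27.2% to 30.0%). These are the extremes of the 10 libraries, and the intervals do not cover the spread between tumours.

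Shares were also read in the libraries without the antagonist that had a sum of at least 1 FPKM. Prl2c5 held 5.93% to 12.9% of the sum in 4 anti-PD-1 libraries and 0.907% to 5.33% in 3 Solution libraries, against 14.9% to 29.0% in Combination and 8.2% to 23.3% in Plerixafor libraries. The anti-PD-1 range lay below the Combination range and overlapped the Plerixafor range. The Prl2c5 reads behind these shares numbered 8 to 77 in the anti-PD-1 and 1 to 3 in the Solution libraries, and the interval in anti-PD-1 replicate 3, 6.58% to 23.1%, reaches into the Combination range. This difference in shares was not tested. Prl2c2 held 55.6% to 59.7% in the anti-PD-1 libraries and 51.5% to 59.7% in the Solution libraries.

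**Figure D3:**
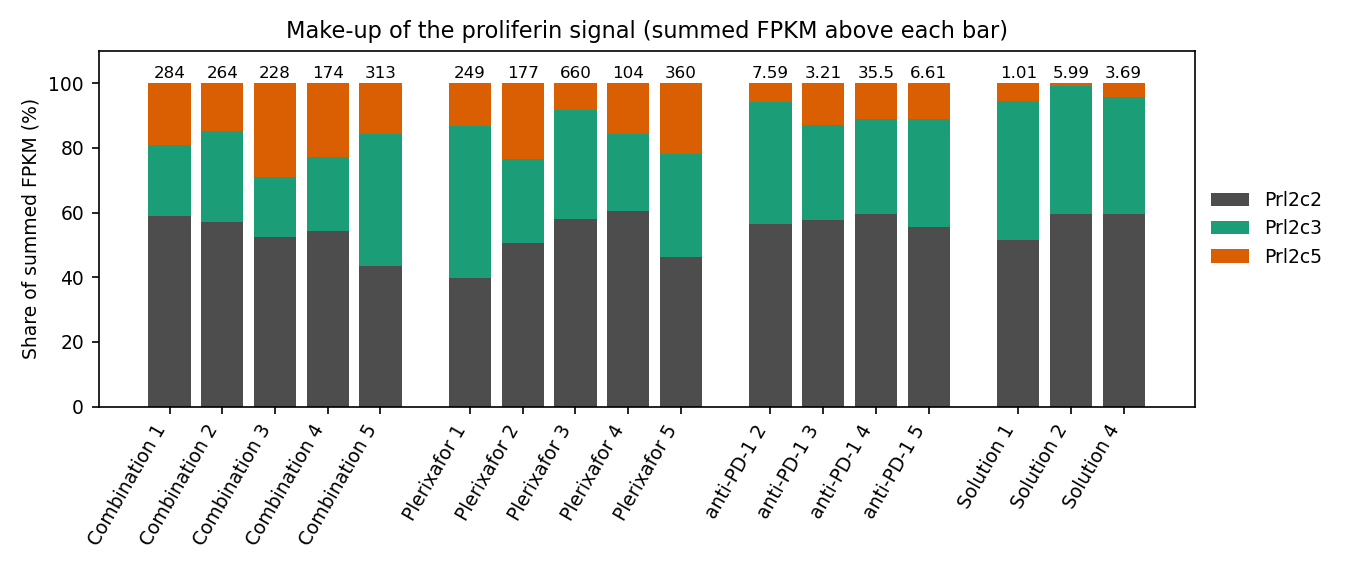
Share of the summed proliferin FPKM (%, vertical axis) from Prl2c2, Prl2c3 and Prl2c5, with 1 bar for each of the 17 libraries that had a sum of at least 1 FPKM and the summed FPKM above it. Prl2c2 is the largest piece in every bar except that of Plerixafor replicate 1, where Prl2c3 exceeds it at 47.0% against 39.8%, and the Prl2c5 piece is largest in Combination replicate 3, at 29.0%.

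The proliferin genes varied more between libraries than most genes did in each group, except Prl2c5 in Solution tumours. In Plerixafor tumours the SD of log2(FPKM + 1) was 1.0 for Prl2c2, 1.23 for Prl2c3 and 0.82 for Prl2c5, against a median of 0.19 over the 12687 tested genes. Of these genes 98.5%, 99.4% and 96.9% had a smaller SD in that group. In Combination tumours the SDs were 0.32, 0.67 and 0.31, against a median of 0.14. In Solution tumours the SD was 0.87 for Prl2c2 and 0.67 for Prl2c3, against a median of 0.14. Prl2c5 there, at 0 to 4 reads, had an SD of 0.11. The highest Plerixafor sum, 659.6 FPKM in replicate 3, was 6.34 times the lowest, 104.1 FPKM in replicate 4. In Combination tumours the highest sum was 1.79 times the lowest.

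Across the 10 Combination and Plerixafor libraries, with each group's mean removed, Prl2c2 and Prl2c3 had a Pearson correlation of 0.82, Prl2c2 and Prl2c5 of 0.66, and Prl2c3 and Prl2c5 of 0.58. The copies share their libraries, and Prl2c2 and Prl2c3 much of their sequence. Without Plerixafor replicates 3 and 4, the libraries farthest from the median, the values over 8 libraries were 0.58, 0.62 and 0.06.

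Of 11623 named genes with a mean of at least 2 FPKM in their highest group, those most like the summed proliferin level over all 20 libraries were Ctps (CTP synthase, Pearson correlation 0.975), Apol9a (0.975), Apol9b (0.971), Cenpi (a centromere protein, 0.968) and Bcar1 (a scaffold of adhesion signalling, 0.967). The libraries formed 2 separate clusters by antagonist treatment, so these values largely state that each gene was high in 1 cluster and low in the other. Apol9a averaged 61.6 FPKM in Combination and 71.4 in Plerixafor tumours, against 2.64 in anti-PD-1 and 2.06 in Solution tumours. Apol9a and Apol9b are themselves near-identical copies. Within the 10 Combination and Plerixafor libraries, with group means removed, Ctps had a correlation of -0.18 and Apol9a of 0.62, and without Plerixafor replicates 3 and 4 of -0.51 and -0.31.

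The genes most like the sum within those 10 libraries were other ones. They were Daxx (a histone chaperone, 0.951), Capn1 (the protease calpain 1, 0.948), Psmg4 (a proteasome assembly factor, 0.935), Nub1 (a regulator of NEDD8 conjugation, 0.929) and Mt1 (metallothionein 1, 0.914). Without Plerixafor replicates 3 and 4 they stood at 0.775, 0.959, 0.767, 0.754 and 0.81. The 8 libraries left are part of the 10 on which these genes were picked out of 11623. The second values are therefore no independent check. Capn1 differed little between the groups, at 32.0 FPKM in Combination, 33.0 in Plerixafor, 31.7 in anti-PD-1 and 34.2 in Solution tumours. Mt1 was lower in tumours with the antagonist, at 18.4 FPKM in Combination and 19.4 in Plerixafor tumours, against 48.6 in anti-PD-1 and 61.2 in Solution tumours.

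The rest of the prolactin family stayed near 0. Of 24 other family genes on the list, 12 were in the table and 0 passed the filter on low values. They were Prl (pituitary prolactin), Prl2a1, Prl2c1, Prl3a1, Prl3d1, Prl3d2 and Prl3d3 (placental lactogens of the Prl3d type), Prl5a1, Prl6a1, Prl7a1, Prl8a8 and Prl8a9. Their highest value in any library was 0.249 FPKM, for Prl3d2, and together they had 42 reads over all 20 libraries, against 52985 reads for the 3 proliferin genes. Prl2c1, whose coding sequence is about as long and 92.43% identical to that of Prl2c2, had 4 reads.

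Placental and trophoblast genes were mostly too low to test. Of 36 listed genes, 22 were in the table and 6 passed the filter, 4 of them higher and 2 lower in Combination than in anti-PD-1 tumours by limma, with a median log2 difference of 1.61. In Plerixafor against Solution 3 were higher and 2 lower, with a median of 1.09. Of all tested genes 43.7% were higher and 30.9% lower in the first comparison, and 42.3% and 33.2% in the second. Phlda2, an imprinted gene that restrains placental growth, averaged 29.5 FPKM in Combination tumours and 0.539 FPKM in anti-PD-1 tumours (log2 difference 4.38, SE 0.27, limma adjusted p = 1.22e-10). Eomes, a transcription factor of trophoblast stem cells and also of T and NK cells, averaged 36.4 FPKM in Combination and 2.18 FPKM in anti-PD-1 tumours (3.69, SE 0.30, limma adjusted p = 2.99e-09). Gata2, a regulator of placental lactogen and proliferin genes in mouse trophoblast, rose by 2.1 (SE 0.19, limma adjusted p = 1.73e-08), and the related Gata3, named after its values were seen, by 1.12 (SE 0.35, limma adjusted p = 0.00735).

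Cdkn1c, an imprinted cell cycle inhibitor, was lower in Combination tumours at 2.05 FPKM, against 28.8 FPKM in anti-PD-1 tumours (log2 difference -3.44, SE 0.38, limma adjusted p = 2.08e-07). The other lower gene was Peg10, named after its values were seen. It averaged 0.138 FPKM in Combination and 1.73 FPKM in anti-PD-1 tumours (-1.23, SE 0.14, limma adjusted p = 4.54e-07). The remaining placental genes did not pass the filter on low values. Tfap2c, Wnt7b, Ctsr and Ctsj reached 4.29, 2.82, 1.58 and 1.26 FPKM, each in a Solution library. Others were at or near 0, and the genes named here were picked after their values were seen. Cdx2 reached 0.0538 FPKM, Gcm1 0.0505 FPKM, Plac1 0.148 FPKM and the syncytin gene Syna 0.1996 FPKM in their highest libraries. Elf5, a factor of trophoblast stem cells and of epithelium, averaged 0.136 FPKM in Combination and 0.0994 FPKM in Plerixafor tumours, against 0.478 in anti-PD-1 and 2.89 in Solution tumours.

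On chromosome 13 the next genes after Prl2c5 were also higher with the antagonist, while genes before the cluster and farther after it were higher, lower or did not pass. The genes around the cluster were looked at after the proliferin values had been seen. Their places count only genes with deposited values, so RefSeq genes without values are skipped. Gm2423, the next of these genes after Prl2c5, is annotated in RefSeq as a transcribed pseudogene. It had 24.62, 26.21, 27.05, 29.68 and 34.08 FPKM in Combination tumours, against 0.736, 0.684, 0.594, 3.01 and 0.982 FPKM in anti-PD-1 tumours. The log2 difference was 3.82 (SE 0.20, limma adjusted p = 3.05e-11), and replicate 4 was again the highest anti-PD-1 library. Plerixafor tumours averaged 24.9 ± 4.82 FPKM, against 0.887 ± 0.136 FPKM in Solution tumours (SD, n = 5 each).

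Gm7040, the gene after it, averaged 0.659 FPKM in Combination and 1.69 FPKM in Plerixafor tumours and was listed at 0 in all 10 anti-PD-1 and Solution libraries, so no fold is given. Heatr1, a ribosome biogenesis gene 5 places before Prl2c3, rose by 1.44 in Combination tumours (SE 0.17, limma adjusted p = 4.58e-07). Lgals8, Nid1 and Lyst fell by 0.73, 0.97 and 0.62 on the log2 scale (limma adjusted p = 0.00191, 0.000444 and 0.0198). Ero1b, the last gene before the cluster, differed by 0.09 (limma adjusted p = 0.714). Gpr137b differed by -0.52 in Combination against anti-PD-1 (limma adjusted p = 0.208) and by -1.48 in Plerixafor against Solution (limma adjusted p = 0.00146).

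Igf2r was lower where the proliferin genes were high, while most genes of the receptor route did not pass in Combination against anti-PD-1. Igf2r, which encodes the receptor that binds proliferin, insulin-like growth factor 2 and mannose 6-phosphate, had 4.45 to 9.56 FPKM in Combination tumours, against 21.7 to 43.95 FPKM in anti-PD-1 tumours. It was lower by limma in both comparisons, with -2.18 (SE 0.23, adjusted p = 1.15e-07) for Combination against anti-PD-1 and -2.29 (SE 0.23, adjusted p = 6.54e-08) for Plerixafor against Solution. Of the 8 genes of this list, 3 were lower in Combination tumours and 5 did not pass, with a median of -0.19, in a comparison with 30.9% of all tested genes lower. Of these genes 6 were lower with anti-PD-1 replicate 4 as the sole anti-PD-1 library. With all libraries the genes lower beside Igf2r were Ghr, the growth hormone receptor (-2.90, SE 0.37, limma adjusted p = 1.07e-06), and Gnptg, a subunit of the enzyme that builds the mannose 6-phosphate tag (-0.32, SE 0.12, limma adjusted p = 0.0253).

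M6pr, the smaller of the mannose 6-phosphate receptors, averaged 108.5 FPKM in Combination and 96.3 FPKM in anti-PD-1 tumours and did not pass (limma adjusted p = 0.269). Plerixafor against Solution had 1 gene higher, Igf2 (2.60, SE 0.39, limma adjusted p = 9.58e-06), and 5 lower, with a median of -0.52. Over all tested genes 42.3% were higher and 33.2% lower there. Igf2 was named after its values were seen.

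Growth factors known to induce proliferin in cultured cells, and their receptors, moved in both directions, with more lower than higher. The shares over all tested genes were 43.7% higher and 30.9% lower in Combination against anti-PD-1. They were 42.3% and 33.2% in Plerixafor against Solution. Of 14 tested genes among 17 listed, 3 were higher and 7 lower in Combination than in anti-PD-1 tumours, with a median of -0.50, and 3 were higher and 9 lower in Plerixafor than in Solution tumours, with a median of -0.67. The 3 higher genes were the ligands of the EGF receptor Hbegf, Areg and Ereg, of which Areg and Ereg were named after their values were seen. Hbegf averaged 28.2 FPKM in Combination tumours and 4.58 FPKM in anti-PD-1 tumours (2.41, SE 0.21, limma adjusted p = 6.89e-09). Areg averaged 33.3 FPKM in Combination and 3.82 FPKM in anti-PD-1 tumours (3.51, SE 0.57, limma adjusted p = 2.05e-05).

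The 7 lower genes were Fgf1, Fgf2, Fgf7, Fgfr1, Pdgfb, Pdgfra and Pdgfrb, in part named after their values were seen. The others did not pass, with Fgfr2 at -0.27, Fgfr3 at 0.39, Pdgfa at 0.1 and Egfr, the EGF receptor, at -0.11. Fgfr1 averaged 6.003 FPKM in Combination and 35.5 FPKM in anti-PD-1 tumours (-2.44, SE 0.27, limma adjusted p = 2.13e-07). Pdgfra, which is also a fibroblast marker, fell by 2.40 (SE 0.27, limma adjusted p = 2.68e-07), and the ligand gene Pdgfb fell by 1.14 (SE 0.13, limma adjusted p = 2.76e-07).

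AP-1 subunits moved in both directions. All tested genes were 43.7% higher and 30.9% lower in Combination against anti-PD-1, and 42.3% and 33.2% in Plerixafor against Solution. Of 17 genes, 7 were higher and 7 lower in Combination than in anti-PD-1 tumours, with a median of 0.02, and 5 were higher and 7 lower in Plerixafor than in Solution tumours, with a median of -0.16. With anti-PD-1 replicate 4 as the sole anti-PD-1 library 4 were higher. Fosl1, the Fos family member Fra-1 and a growth factor target itself, had 48.01 to 60.82 FPKM in Combination tumours, against 0.319 to 9.08 FPKM in anti-PD-1 tumours (4.14, SE 0.46, limma adjusted p = 2.42e-07). In Plerixafor tumours Fosl1 had 26.94 to 68.89 FPKM, against 0.620 to 8.32 FPKM in Solution tumours. Jun was lower in Combination tumours, at 24.1 FPKM against 61.3 FPKM in anti-PD-1 tumours (-1.31, SE 0.11, limma adjusted p = 5.13e-09). The small Maf genes Maff (2.24, SE 0.22, limma adjusted p = 4.33e-08) and Mafg (0.79, SE 0.08, limma adjusted p = 1.39e-07) were higher.

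Endothelial and angiogenic genes were mostly lower. The list holds endothelial markers and also secreted factors, so its counts are no measure of endothelial cells alone. Of 22 genes, 3 were higher and 17 lower in Combination than in anti-PD-1 tumours, with a median of -1.15. In Plerixafor against Solution tumours 2 were higher and 14 lower, with a median of -0.78. Among all tested genes 43.7% were higher and 30.9% lower in the first comparison, and 42.3% and 33.2% in the second. Cdh5, the cadherin of endothelial junctions, averaged 13.04 FPKM in Combination and 41.46 FPKM in anti-PD-1 tumours (-1.61, SE 0.18, limma adjusted p = 1.67e-07). Tek, the angiopoietin receptor, fell by 2.11 (SE 0.29, limma adjusted p = 3.21e-06), its ligand gene Angpt1 by 1.63 (SE 0.22, limma adjusted p = 2.69e-06) and Robo4 by 1.15 (SE 0.16, limma adjusted p = 2.46e-06). The 3 higher genes were Vegfa, Pgf and Egfl7, named after their values were seen. Vegfa averaged 62.0 FPKM in Combination and 30.4 FPKM in anti-PD-1 tumours (1.08, SE 0.24, limma adjusted p = 0.000464). With limma-voom on recovered reads 1 gene was higher.

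**Figure D4:**
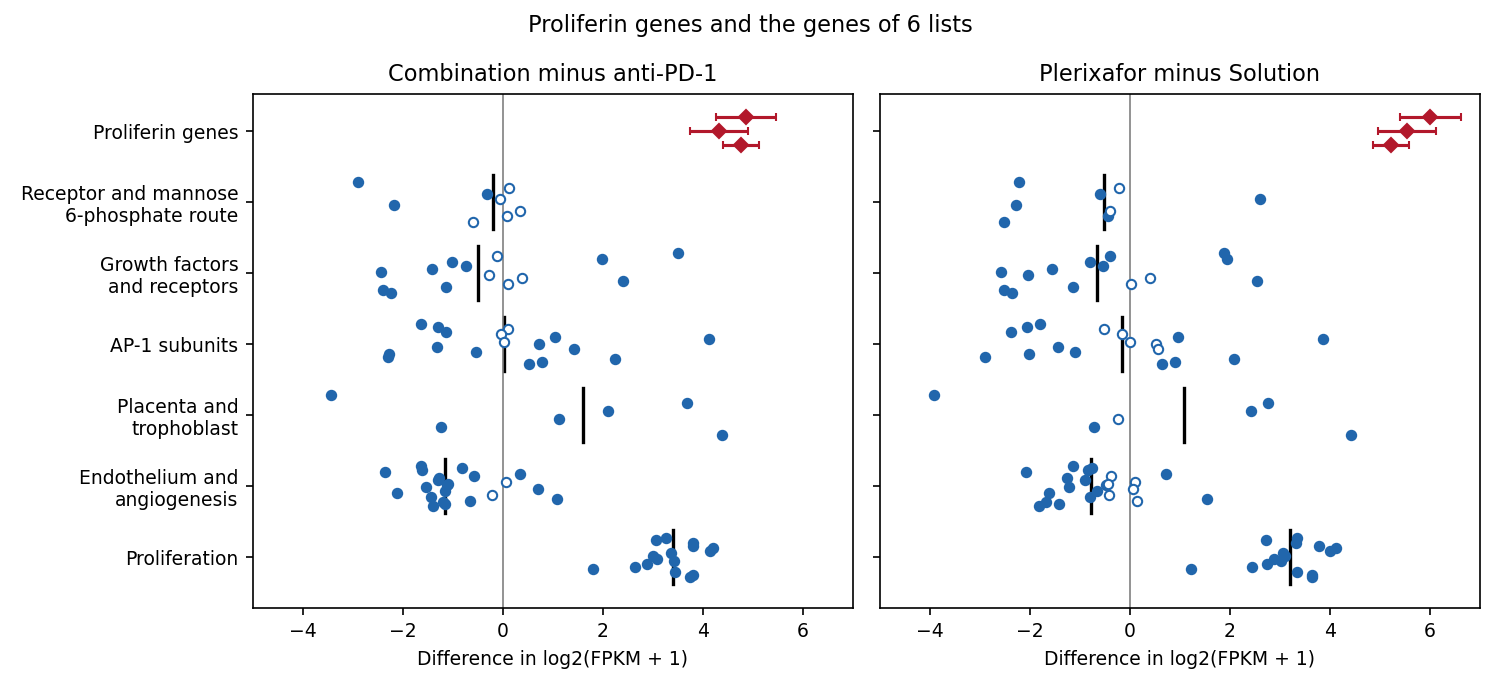
Differences in log2(FPKM + 1) for the 3 proliferin genes (red diamonds with SE, Prl2c2 at the top, then Prl2c3 and Prl2c5) and for the tested genes of 6 lists (blue), Combination minus anti-PD-1 on the left and Plerixafor minus Solution on the right. Filled points passed a limma adjusted p of 0.05, open points did not, and black bars are list medians, such as 3.4 and 3.2 for proliferation and -1.15 and -0.78 for endothelium and angiogenesis.

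Markers of dividing cells were higher in both comparisons, as the proliferin genes were. For comparison, 43.7% of all tested genes were higher in Combination against anti-PD-1 and 42.3% in Plerixafor against Solution. All 16 proliferation genes were higher in both comparisons, with medians of 3.4 for Combination against anti-PD-1 and 3.2 for Plerixafor against Solution, with the smallest p for Mcm7 (2.89, SE 0.19, limma adjusted p = 2.66e-10) and Aurka (3.27, SE 0.23, limma adjusted p = 6.01e-10), with Bub1 at 3.81 and Mcm2 at 3.08. Their summed level was 1074 to 1309 FPKM in Combination and 752.9 to 1357 FPKM in Plerixafor tumours, against 49.4 to 275.2 FPKM in anti-PD-1 and 141.8 to 185.3 FPKM in Solution tumours. Anti-PD-1 replicate 4, which had the highest proliferin sum without the antagonist, also had the highest mean log2 level of these genes there, 3.78 against 1.42 to 3.0 in the other 9 libraries. Within the antagonist groups the proliferin sum and these genes did not keep the same order. Plerixafor replicate 5, the lowest of the 10 in proliferation genes at 5.32, had a proliferin sum of 360 FPKM, and only Plerixafor replicate 3 was higher. Their part in the proliferin differences was not tested.

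Host cell lists were lower. Among all tested genes 30.9% were lower in Combination against anti-PD-1 and 33.2% in Plerixafor against Solution. Fibroblast genes, led by Pdgfra, Pdgfrb, Col6a1 and Fap, were lower in 11 of 11 in both comparisons (medians -2.40 and -2.77), with a summed level of 450.5 to 1703 FPKM in Combination and 557.1 to 2258 FPKM in Plerixafor tumours, against 1857 to 8975 FPKM in anti-PD-1 and 6141 to 10270 FPKM in Solution tumours. Macrophage genes were lower in 8 of 11 in Combination against anti-PD-1 and 11 of 11 in Plerixafor against Solution (medians -1.40 and -2.14), with Mrc1 at -1.65 and Mertk at -2.11 in Combination against anti-PD-1. T cell genes were lower in 11 of 11 tested in both (medians -1.30 and -2.14), among them Cd2 at -1.63 and Cd4 at -1.49 in Combination against anti-PD-1. Fewer passed with replicate 4 as the sole anti-PD-1 library, a fit with little power. That library had a mean log2 T cell level of 3.99, above the 0.704 to 3.03 of the Combination libraries. Without any 1 of Combination replicates 4 and 5 and anti-PD-1 replicates 3 and 4, between 5 and 7 T cell genes were lower in Combination against anti-PD-1. The summed T cell level was 7.60 to 97.5 FPKM in Combination and 21.7 to 131.1 FPKM in Plerixafor tumours, against 55.8 to 196.5 FPKM in anti-PD-1 and 193.2 to 319.2 FPKM in Solution tumours.

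Skeletal muscle genes were lower in 10 of 10 in Combination against anti-PD-1 (median -5.6), a call that no muscle gene kept with replicate 4 alone. In Plerixafor against Solution they did not pass (median 1.41), and the list had summed levels of 45.2 to 1173 FPKM in Plerixafor and 7.96 to 1424 FPKM in Solution tumours. Simple epithelial genes were higher in 3 of 9 in Combination against anti-PD-1, Krt8, Krt18 and Perp, and the other 6 did not pass. In Plerixafor against Solution the same 3 were higher and the other 6 lower. These 6, in part named after their values were seen, were Krt19 (-3.59), Epcam (-3.02), Krt7 (-3.01), Cldn4 (-2.72), Cldn3 (-2.58) and Cdh1 (-2.03). Krt8 averaged 381.7 FPKM in Combination and 16.3 FPKM in anti-PD-1 tumours (4.96, SE 0.56, limma adjusted p = 2.67e-07). Of 4 tested skin keratinocyte genes, 1 was higher in Combination tumours, Krt14, and 3 were lower in Plerixafor than in Solution tumours. Beside these lists, 43.7% of all tested genes were higher and 30.9% lower in Combination against anti-PD-1. The shares were 42.3% and 33.2% in Plerixafor against Solution.

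**Figure D5:**
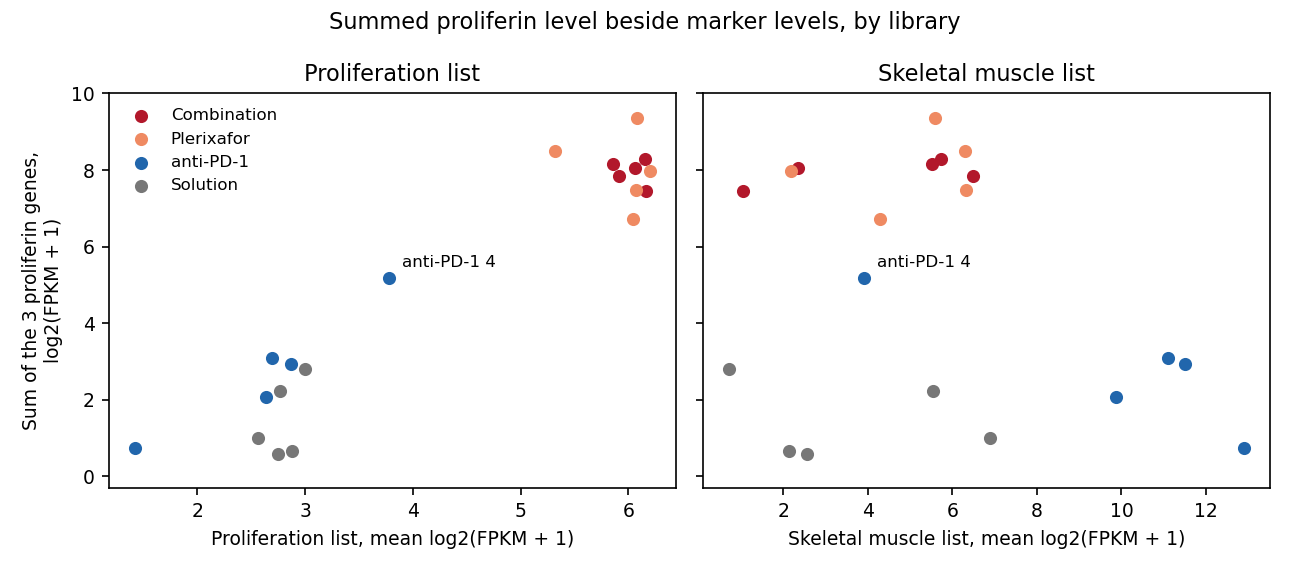
Summed proliferin level as log2(FPKM + 1) on the vertical axis, against the mean log2(FPKM + 1) of 16 proliferation genes (left) and 10 skeletal muscle genes (right), 1 point per library. The Combination and Plerixafor libraries form 1 cloud at high proliferation levels, and anti-PD-1 replicate 4, with a proliferation level of 3.78 and a muscle level of 3.92, lies apart from the other anti-PD-1 libraries, at 9.86 to 12.9 for muscle.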

How the data were processed

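Per the labels' protocols, a stranded mRNA kit and an Illumina NovaSeq were used for the 20 tumour libraries. The authors deposited FPKM values, 1 column per library, for 18722 genes, with 0 columns of other samples. HISAT2 2.1.0, HTSeq 0.11.2 and StringTie 2.1.4 with GRCm39 are named in the submitters' processing notes. Their roles, and whether counting used strand, are not given in the sources used here. Every gene's values were whole multiples of 1 step (to within 0.02), which gave back 16565807 to 19833872 reads per library. Among 40 pairs of libraries within groups the lowest median chi-square per gene was 1.84, so none was a copy of another.

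The deposited FPKM were tested as log2(FPKM + 1) by limma (version 3.58.1, R version 4.3.3, empirical Bayes with a trend, all 20 libraries, 16 residual degrees of freedom, Benjamini-Hochberg over 12687 genes, threshold 0.05), checked on simulated data. Sums and shares used exact permutation in SciPy 1.17.1. The genes and the 13 lists were chosen with earlier results of these data known. The lists covered other prolactin family genes, placenta, receptor route, AP-1, growth factors, endothelium, T cells, macrophages, fibroblasts, skeletal muscle, simple epithelium, keratinocytes and proliferation. Of each list up to 4 tested genes with the smallest p in Combination against anti-PD-1 were named, all genes in the table for the prolactin family, and the 5 most like genes by each correlation. Genes beyond this rule are marked as chosen after their values were seen. The Cdx2, Gcm1, Plac1, Syna, Elf5, Tfap2c, Wnt7b, Ctsr and Ctsj levels were also added then. So were the neighbouring genes, Prl2c5 shares without the antagonist and intervals. Alternatives varied the pseudocount, filter, scaling, fit, replicate block and libraries left out.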

Additional observations from a re-analysis of the deposited data

Results flagged for a closer look

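Anti-PD-1 replicate 4 stood far above the other anti-PD-1 libraries for every proliferin gene, at 21.17 FPKM for Prl2c2, 10.39 FPKM for Prl2c3, 3.89 FPKM for Prl2c5 and 35.46 FPKM for their sum. The gap to the next library took up 0.806, 0.744, 0.853 and 0.801 of the group's range, above the critical value of 0.71 for 5 libraries. The rule was applied to FPKM, a skewed scale that widens the gap below a high value, and was not run on log2(FPKM + 1). Chance flags about 1 in 20 groups if values are normally distributed, and 22 groups were looked at. The 4 values are not independent, since the genes are copies and the sum is made of them. The same library had little muscle RNA and the highest proliferation level of the libraries without the antagonist. Their part in this was not tested.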

How the results depend on the processing

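Combination against anti-PD-1 kept its direction and stayed past 0.05 for all 3 genes under every alternative run. Leaving out 1 library at a time gave 4.39 to 5.44 for Prl2c2, 3.98 to 4.78 for Prl2c3, 4.61 to 5.12 for Prl2c5 and 4.64 to 5.75 for the sum. Replicate numbers did not pair the libraries (correlations of same-numbered deviations -0.75 to 0.51 over 5 comparisons, and -0.26 to 0.33 for Combination against anti-PD-1). With the replicate block the sum differed by the same 5.15 with an exact paired p of 0.0625, the smallest 5 pairs allow, and the block changed no call for the 3 genes. With a minimum of 5 FPKM, 2450 genes were lower in Combination than in anti-PD-1 tumours in place of 3915, and 2755 in Plerixafor than in Solution tumours in place of 4207, with 9483 genes tested. Median-of-ratios scaling moved the median of all genes in Combination against anti-PD-1 to -0.02, with 4837 genes higher and 4689 lower in place of 5547 and 3915. Keratinocyte, placental and T cell counts of lower genes also moved by over 1.5 times in some settings, T cells to 5 with only the compared groups in the fit and placental genes in Plerixafor against Solution to 9 without a filter. The limits are few reads of Prl2c5 without the antagonist, shared sequence between Prl2c2 and Prl2c3, and muscle RNA in 4 anti-PD-1 libraries.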
